A study of Homo sapiens with 6 samples.

Results

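Histone genes were examined in OVCAR8 cells, a human ovarian cancer line, treated with pladienolide B or with its solvent. The genes were chosen by name, as the linker H1 genes, the numbered H2A, H2B, H3 and H4 genes of the histone clusters, and the variants H2AX, H2AZ1, H2AZ2, H3-3A, H3-3B, MACROH2A1 and MACROH2A2. This gave 77 genes of the 38637 in the table. Of these, 66 were clustered genes, 6 were variants with introns, and 2 were germ line linker genes outside the clusters (H1-7 and H1-8). H1-10 and H2AX have 1 exon in their canonical transcript and also lie outside the clusters, and for H2AX a spliced transcript is listed as well. The clustered genes comprised 6 H1, 16 H2A, 17 H2B, 13 H3 and 14 H4 genes, of which 55 lie on chromosome 6 and 11 on chromosome 1.

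Both groups were wild-type OVCAR8 cells kept for 72 h, the DMSO group in solvent alone and the pladienolide B group in 2 nM pladienolide B, a compound that binds the SF3B1-containing SF3b complex of the spliceosome and inhibits splicing. Each group had 3 samples of 1 cell line, and nothing in the labels says that they came from separate cultures, so p-values measure the spread between these samples only. RNA was enriched with oligo(dT) before sequencing. The comparison asks how genes whose main transcripts carry no intron and genes whose transcripts must be spliced differed in level under a splicing inhibitor.

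Most histone protein is made in S phase from clustered, replication-dependent genes. Their transcripts have no introns and, unlike other mRNAs, end just after a short stem-loop rather than in a poly(A) tail. The stem-loop binding protein SLBP and the U7 snRNP direct that cleavage, and the same stem-loop controls export, translation and decay at the end of S phase. Variant histones such as H2A.Z, H3.3 and macroH2A are made throughout the cell cycle from ordinary polyadenylated mRNAs, most of them spliced. An oligo(dT) step therefore keeps mainly those clustered transcripts that carry a tail.

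The stem-loop was searched for by its sequence within 200 bases after the stop codon in GRCh38, and it is shown here because it marks the transcripts that normally lack a tail. It was found in 67 of the 77 genes, all 66 clustered genes and H2AX. It was not found in that window in the 6 variants with introns, H1-10, H1-7 or H1-8. It lay 22 to 67 bases after the stop codon, with a median of 35, in 11 different sequences, of which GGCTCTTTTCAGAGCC was in 38 genes, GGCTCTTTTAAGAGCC in 9 and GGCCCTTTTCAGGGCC in 9, all of the last being H4 genes. Below, the stem-loop is in capitals and the 5 bases on either side are in lower case, for the 3 clustered genes with the lowest adjusted p, the most abundant clustered gene and the variant H2AX.
H2BC8, chr6:26216213-26216238, minus strand: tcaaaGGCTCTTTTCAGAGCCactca
H2BC9, chr6:26252050-26252075, plus strand: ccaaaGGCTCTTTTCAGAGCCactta
H2BC21, chr1:149886183-149886208, minus strand: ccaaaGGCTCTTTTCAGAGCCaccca
H2BC12, chr6:27146361-27146386, minus strand: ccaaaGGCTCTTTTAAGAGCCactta
H2AX, chr11:119094893-119094918, minus strand: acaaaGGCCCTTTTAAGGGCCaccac

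The values are adjusted reads, read counts that the authors brought to a common library size. The samples held 22621338 to 26130882 reads on genes. DMSO replicate 2 stood apart from the other DMSO samples, with a chi-square per degree of freedom of 7.29 and 7.20 against them, where the other replicate pairs had 2.00 to 4.79. No sample duplicated another, and calls of histone genes that changed without DMSO replicate 2 are given below. The Mullerian marker PAX8 ranged from 4011 to 4162 adjusted reads in solvent and from 4161 to 4581 under treatment, and the T cell gene CD3E was at 0 reads in all samples.

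All clustered genes together gave few reads. Their sum was 1475, 1513 and 1569 reads in the DMSO samples and 1107, 1068 and 1197 in the pladienolide B samples, or 56.4 to 60.5 and 47.2 to 49.8 RPM (reads scaled to the library's reads on genes). The groups did not overlap, and in adjusted reads the sum was 1465 ± 70.8 (SD, n = 3) in DMSO and 1165 ± 31.1 in pladienolide B, 79.5% of the DMSO mean. The 6 variants with introns gave 1868, 2022 and 1892 RPM in DMSO and 1899, 1811 and 1870 in pladienolide B, and these ranges overlapped. As a sum over members, neither was tested.

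One clustered gene dominated that sum. H2BC12 held 41.6% of the adjusted reads of the clustered genes and H1-2 another 11.4%. Without H2BC12, the clustered sum was 927 ± 46.9 (SD, n = 3) in DMSO and 608 ± 14.8 in pladienolide B, 65.6% of the DMSO mean. H2BC12 itself had means of 539 and 556, so leaving it out lowers that percent. Summed by type, the pladienolide B mean was 83.7% of the DMSO mean for H1, 71.3% for H2A, 80.9% for H2B, 74.5% for H3 and 78.8% for H4. The RPM ranges did not overlap between groups for H1 (7.36 to 8.61 and 5.78 to 7.33), H2A (6.60 to 8.73 and 5.31 to 5.70), H2B (35.2 to 39.7 and 29.4 to 32.9) or H3 (4.06 to 4.72 and 2.83 to 3.89), and overlapped for H4 (2.12 to 2.92 and 1.42 to 2.58). In oligo(dT)-enriched bulk RNA, fewer cells in S phase, less histone RNA per cell and fewer tailed transcripts cannot be told apart.

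Genes were tested when they reached about 10 adjusted reads in 3 samples. Of the 77 genes 35 passed, among them 26 clustered genes and 6 variants with introns, and 42 did not. Called means an adjusted p below 0.05 in limma's moderated test of log2(adjusted reads + 1), adjusted over all 16178 genes tested. Among those, 47.6% were called, 22.4% higher and 25.2% lower in pladienolide B, with a median log2 difference of -0.0042. The 2 groups did not overlap for 55.3% of all genes tested and for 13 of the 26 clustered genes tested, so groups without overlap were common. Of the 26 clustered genes tested, 10 were called lower, 0 higher and 16 were not called, and the median log2 fold change of the 26 was -0.42. The 10 summed to 343.5 ± 29.4 adjusted reads (SD, n = 3) in DMSO and 116 ± 7.63 in pladienolide B, 33.9% of the DMSO mean. The 16 summed to 976 ± 51.6 and 937 ± 32.3, or 96.0%, a split that the calls themselves made. edgeR and DESeq2 likewise called 0 higher, and at an unadjusted p below 0.05 limma and DESeq2 gave 0 higher and edgeR 1, H2BC11. A clustered gene that passed the filter only through the group where it was high had to differ, so this count is a description. For 9 genes all DMSO samples but not all pladienolide B samples reached the minimum, and these included 8 of the 10 called (H2AC8, H2AC11, H2AC15, H2BC8, H2BC15, H3C1, H3C6 and H4C3). H2BC9 and H2BC21 reached it in all samples. Without the filter limma called 7 of the 63 clustered genes with a read lower, beside 14% of the 27679 genes then tested. edgeR without the filter called 12 of them lower, beside 14.8% of all genes. The 7 called by limma were all among the 10, while H2AC15, H2AC8 and H2BC15 were not called by limma (adjusted p = 0.0563, 0.0912 and 0.0967). With a filter on the mean over all samples, chosen after the data were seen, 8 of 21 clustered genes were lower. The share of all genes under that filter is not given here. Without DMSO replicate 3 the count was 6, without pladienolide B replicate 2 it was 5, and with DESeq2 it was 6. Without limma's variance trend it was 7, with H2AC8, H2BC15, H3C1 and H4C3 not called (adjusted p = 0.0575 to 0.12) and H2BC5 called (0.0183).

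**Figure D1:**
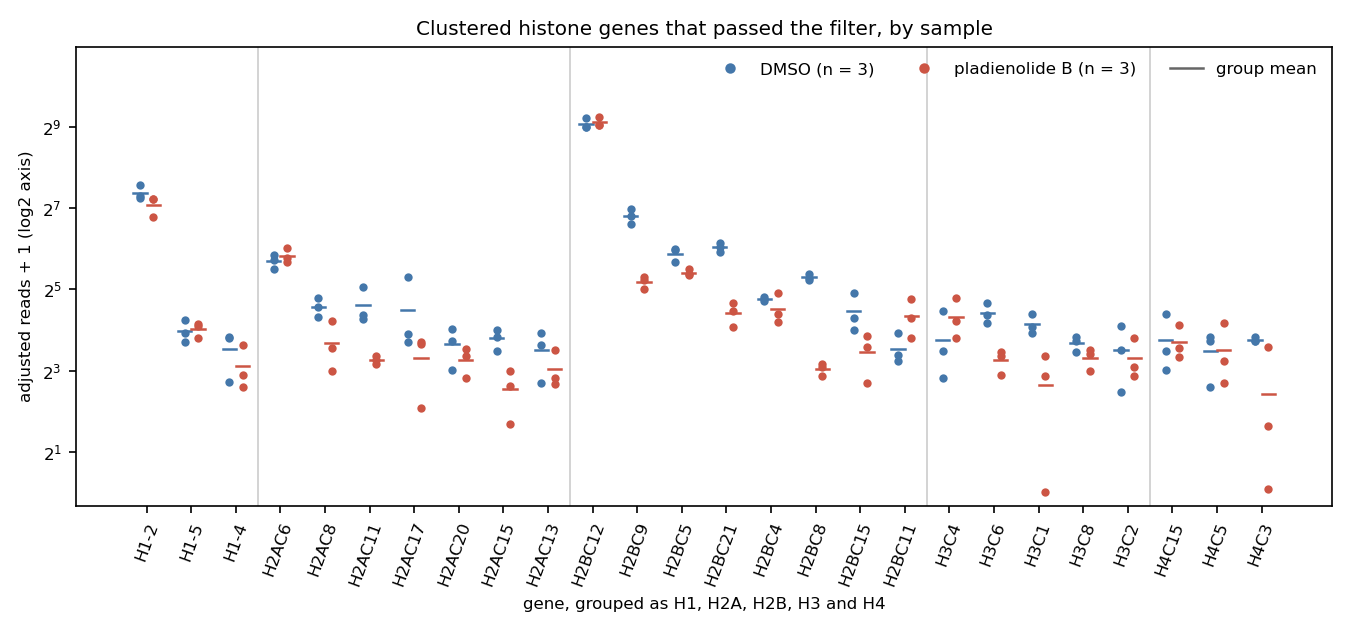
Adjusted reads + 1 on a log2 axis for the 26 clustered histone genes that passed the filter, grouped as H1, H2A, H2B, H3 and H4, with a point per sample (blue, DMSO, and red, pladienolide B, n = 3 each) and a bar at each group mean. H2BC12 sits far above the others in both groups, and the red points of H2BC8, H2BC9 and H2BC21 lie below all of their blue points.

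The clearest falls were in H2B genes. H2BC8 (chr6:26216200-26216688, minus strand) had 36.7, 40.3 and 37.8 adjusted reads in DMSO and 6.28, 7.47 and 8.02 in pladienolide B. The groups were far apart, and the log2 fold change was -2.25 ± 0.31 (SE, n = 3 a group, limma adjusted p = 1.62e-05), a mean at 19.0% of DMSO. H2BC9 (chr6:26251614-26252075, plus strand) had 96.6, 125 and 112 adjusted reads in DMSO and 36.5, 38.3 and 31.1 in pladienolide B, again with no overlap, and fell by 1.62 ± 0.18 on the log2 scale (adjusted p = 1.84e-06). H2BC21 (chr1:149884459-149886682, minus strand) had 59.2, 65.5 and 69.1 against 15.7, 24.4 and 21.04, and fell by 1.63 ± 0.24 (adjusted p = 2.81e-05). These 3 genes encode core H2B, have 1 exon in GENCODE, and were called under each of the 14 alternatives, which include leaving out each sample. H2BC15 had 18.8, 29.2 and 14.97 adjusted reads in DMSO and 13.5, 5.47 and 11.02 in pladienolide B, close but not overlapping, with a log2 fold change of -1.03 ± 0.40 (adjusted p = 0.0435). That call was lost with DESeq2 (adjusted p = 0.0795), without the filter, without the variance trend (0.0773), with the replicate number as a block (0.0596) and without DMSO replicate 1 or 2 or pladienolide B replicate 2 or 3 (adjusted p = 0.0586 to 0.18).

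Genes of the other types fell from lower levels. All called genes of the H2A, H3 and H4 types reached the filter's minimum in all DMSO samples but not in all pladienolide B samples. Their adjusted p-values are therefore given as a description. H2AC11, a core H2A gene, had 19.7, 18.2 and 32.4 adjusted reads in DMSO and 9.37, 8.55 and 8.02 in pladienolide B, with a log2 fold change of -1.30 ± 0.36 (adjusted p = 0.00655). It was not called without DMSO replicate 3, the highest of its samples (adjusted p = 0.0558). H2AC15 had 10.3, 15.1 and 13.2 against 5.21, 2.21 and 7.01 (-1.34 ± 0.48, adjusted p = 0.0296), and H2AC8 had 22.6, 19.2 and 26.6 against 17.6, 10.7 and 7.02 (-0.97 ± 0.37, adjusted p = 0.038). Neither pair of groups overlapped, and both calls were lost with DESeq2 (adjusted p = 0.0735 and 0.0956). Without 1 sample, H2AC15 was not called when DMSO replicate 2 or 3 or pladienolide B replicate 2 was left out (adjusted p = 0.0783 to 0.114), and H2AC8 when DMSO replicate 1 or 3 or pladienolide B replicate 2 or 3 was left out (0.0796 to 0.151).

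Of the H3 and H4 genes, 3 were called lower. H3C1 had 15.98, 20.1 and 14.1 adjusted reads in DMSO and 9.29, 6.37 and 0.00 in pladienolide B, where the last sample had 0 reads. Its log2 fold change of -2.05 ± 0.67 (adjusted p = 0.0188) was -1.01 without that sample, and no longer called (adjusted p = 0.0656). H3C6 had 19.8, 24.2 and 16.9 against 9.37, 6.48 and 10.02, with no overlap (-1.15 ± 0.36, adjusted p = 0.0147), and was not called without DMSO replicate 2 (adjusted p = 0.0582) or pladienolide B replicate 2 (0.0518). H4C3 had 12.2, 13.1 and 12.3 in DMSO but 2.13, 0.07 and 11.02 in pladienolide B, so 1 treated sample lay just under the DMSO samples. Its call (-1.98 ± 0.69, adjusted p = 0.0257) was lost with edgeR (adjusted p = 0.0684), with DESeq2 (0.101) and without DMSO replicate 1 or 3 or pladienolide B replicate 1 or 2 (0.0528 to 0.13).

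Other well-measured clustered genes differed less. H2BC12 (chr6:27138293-27146858, minus strand) had 509, 595 and 512 adjusted reads in DMSO and 531, 532 and 606 in pladienolide B, overlapping ranges with a log2 difference of 0.05 (95% interval -0.12 to 0.22, adjusted p = 0.662). H1-2, a linker histone, had 157, 150 and 190 against 148, 148 and 108. All its treated values lay under the DMSO values, but the difference of -0.30 (-0.61 to 0.00) was not called (adjusted p = 0.0981). H2AC6 had 56.6, 44.4 and 52.0 against 50.1, 53.4 and 64.1, overlapping, with a difference of 0.13 (-0.29 to 0.55). H2BC5 had 49.7, 62.5 and 61.5 against 39.6, 40.6 and 44.1, with a difference of -0.47 (-0.89 to -0.04, adjusted p = 0.0649). H2BC4 ranged from 25.5 to 27.3 in DMSO and from 17.2 to 29.0 in pladienolide B.

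Among the 26 clustered genes tested, the highest positive difference did not pass the test. H2BC11 had 8.41, 14.1 and 9.42 adjusted reads in DMSO and 18.8, 13.0 and 26.0 in pladienolide B, a log2 difference of 0.78 (-0.01 to 1.57, adjusted p = 0.0984). H3C4 had 10.3, 6.07 and 21.04 against 17.7, 26.4 and 13.0, and its span overlaps that of H2AC7 on the same strand. The other 9 clustered genes tested and not called (H1-4, H1-5, H2AC13, H2AC17, H2AC20, H3C2, H3C8, H4C5 and H4C15) had mean adjusted reads of 8.79 to 15.2 over all samples. Their log2 differences lay between -1.16 for H2AC17 (adjusted p = 0.0688) and 0.04. H2AC17 was called lower without DMSO replicate 2 (adjusted p = 0.0307) and with the replicate number as a block (0.0402).

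**Figure D2:**
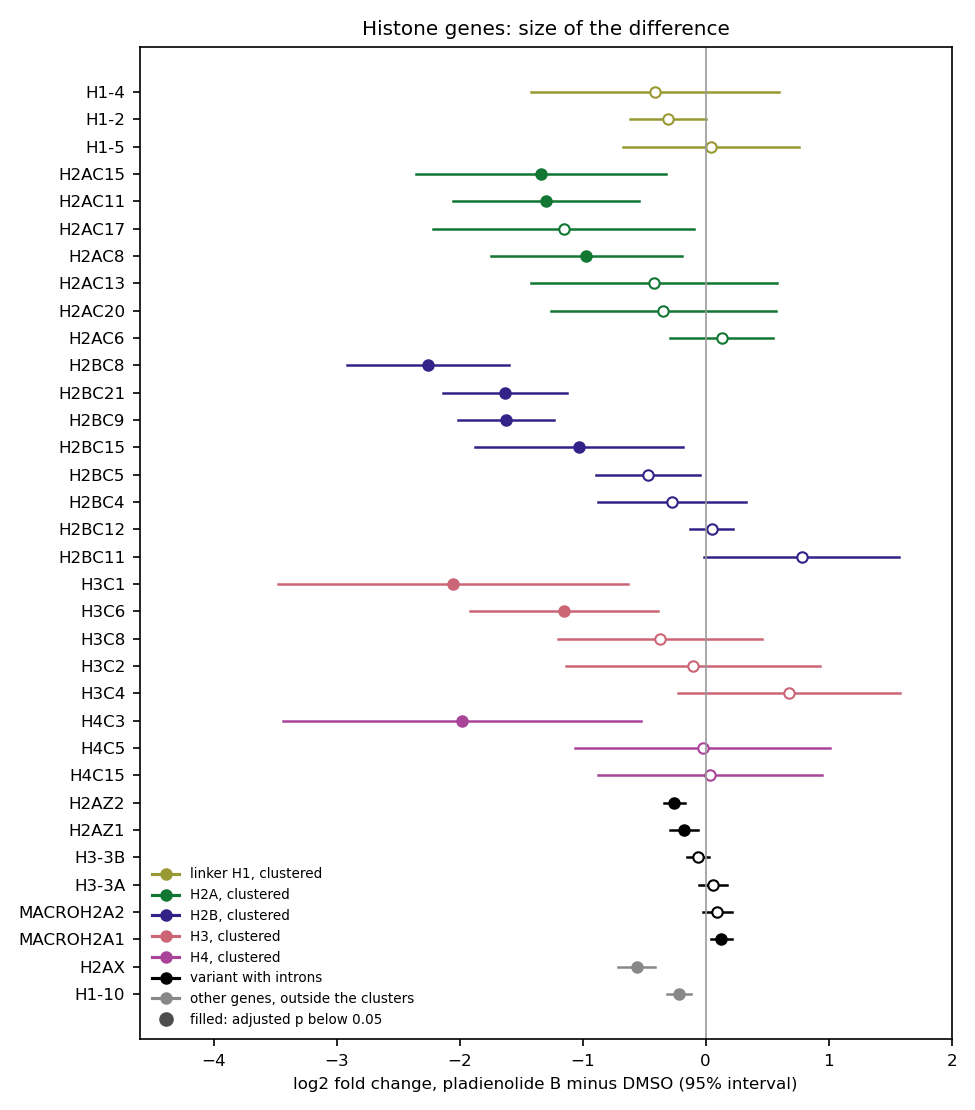
Log2 fold change (pladienolide B minus DMSO) of histone genes tested (26 clustered genes, 6 variants with introns, H1-10 and H2AX), with limma's 95% interval as a line, coloured by type, and filled where the adjusted p was below 0.05. Intervals are wide for most clustered genes and narrow for the variants, and no filled point of a clustered gene lies above 0.

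The 40 clustered genes not tested had few reads. Of these, H1-6, H2BC1 and H3C14 were at 0 reads in all samples, as was the germ line gene H1-7. A count of 0 allows up to 3 reads, or 0.115 to 0.133 RPM in these samples, for counting error only. The highest mean adjusted value among genes not tested was 9.50, in H2BC13, which had 20.9, 15.1 and 6.43 in DMSO and 5.21, 4.29 and 5.01 in pladienolide B. The sum of the 40 genes was 159, 154 and 124 adjusted reads in DMSO and 102, 119 and 112 in pladienolide B, with no overlap. Single means were lower in pladienolide B for 22 of the 40, higher for 15 and at 0 in both groups for 3, so at this depth most single genes could not be told apart. Near-identical copies such as H3C14 and H3C15 or H2AC18 and H2AC19, and clustered genes of 1 type in general, share much of their coding sequence. How reads that fit several genes were counted is not given in the sources used here, so counts of single clustered genes are uncertain.

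How far the deposited gene span ran past the stem-loop differed between genes. In 59 of the 66 clustered genes it ended at most 100 bases past the stem-loop, and in 7 it ran on by 1729 to 29196 bases (H2BC21, H3C6, H4C15, H2BC12, H2BC4, H2BC5 and H2BC18). The 7 genes had a median of 24.2 mean adjusted reads and the 59 a median of 5.28. In sum, the 7 had 727 ± 52.0 (SD, n = 3) adjusted reads in DMSO and 666 ± 42.6 in pladienolide B, 91.5% of the DMSO mean, but 57.9% with H2BC12 left out. The 59 had 738 ± 34.8 and 499 ± 12.6, or 67.6%. Among the 7, 6 were tested and 2 (H2BC21 and H3C6) called lower. Among the 59, 20 were tested and 8 called lower, beside 25.2% of all genes tested. The span of H2BC12 runs 8073 bases past its stem-loop and holds H4C9 on the other strand. Since strand was not stated for the counting, reads of the pair cannot be assigned with certainty, although H4C9 itself had at most 5.72 adjusted reads in any sample.

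Promoters of clustered genes carry shared elements that the choice by name did not use. In RefSeq's promoter sequences (GRCh38.p14, 250 bases before to 50 after the start, matched by symbol for 71 of the 77 genes), both strands were searched for the octamer ATTTGCAT, known in H2B promoters as a binding site of OCT1, the TATA box TATAAA, the CCAAT box CCAAT and an E2F-like motif TTTNGCGC. The octamer was in 14 of 17 H2B and 11 of 15 H2A promoters, in 1 of 11 H3 promoters and in 0 of 12 H4 and 0 of 6 H1 promoters, against 1.80% of all 27305 promoters. The TATA box was in 67.2% of 61 clustered promoters (11.95% of all), the CCAAT box in 85.2% (35.7% of all), and the E2F-like motif in 19.7% (1.83% of all). Among tested genes, the octamer was in 5 of 9 promoters of genes called lower and in 7 of 16 of genes not called. Below are the promoters of the 3 H2B genes that fell most clearly and of H2BC12, to show that the element is in all of them, with every match to the 4 motifs in capitals. Matches can overlap or adjoin each other.
H2BC8, chr6:26216639-26216938, minus strand: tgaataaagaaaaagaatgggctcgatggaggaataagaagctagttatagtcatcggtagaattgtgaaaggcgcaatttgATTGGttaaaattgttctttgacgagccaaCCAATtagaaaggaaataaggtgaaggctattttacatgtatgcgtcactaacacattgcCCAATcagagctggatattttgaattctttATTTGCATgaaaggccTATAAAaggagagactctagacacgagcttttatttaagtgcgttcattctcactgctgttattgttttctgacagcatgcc
H2BC9, chr6:26251364-26251663, plus strand: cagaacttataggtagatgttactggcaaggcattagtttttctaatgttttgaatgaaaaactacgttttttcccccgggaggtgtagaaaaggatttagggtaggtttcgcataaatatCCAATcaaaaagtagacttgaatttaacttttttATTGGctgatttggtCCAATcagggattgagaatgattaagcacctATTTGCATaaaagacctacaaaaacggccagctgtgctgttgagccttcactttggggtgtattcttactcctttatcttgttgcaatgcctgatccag
H2BC21, chr1:149886633-149886932, minus strand: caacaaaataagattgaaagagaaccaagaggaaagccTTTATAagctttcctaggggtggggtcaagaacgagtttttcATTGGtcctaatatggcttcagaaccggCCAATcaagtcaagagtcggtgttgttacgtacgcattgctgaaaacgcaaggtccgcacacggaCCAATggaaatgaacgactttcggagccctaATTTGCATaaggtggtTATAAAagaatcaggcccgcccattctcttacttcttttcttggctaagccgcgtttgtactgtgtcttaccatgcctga
H2BC12, chr6:27146809-27147108, minus strand: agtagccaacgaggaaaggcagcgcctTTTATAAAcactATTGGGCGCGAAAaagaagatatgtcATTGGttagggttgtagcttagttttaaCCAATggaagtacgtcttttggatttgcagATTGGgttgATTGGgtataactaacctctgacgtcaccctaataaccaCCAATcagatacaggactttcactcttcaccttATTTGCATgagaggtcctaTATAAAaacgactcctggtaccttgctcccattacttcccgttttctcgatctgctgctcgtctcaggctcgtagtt

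Many H2A and H2B genes are arranged head to head around 1 shared promoter, and both genes were tested in 5 such pairs, with 194 to 248 bases between their starts. H2AC15 and H2BC15 both fell, as did H2AC8 and H2BC8, and H2BC4 and H2AC6 were both not called. H2BC21 fell while its partner H2AC20 had a difference of -0.35 (adjusted p = 0.541). H2AC11 fell by 1.30 while its partner H2BC11, at 0.78, was not called. The log2 ratio of H2BC11 to H2AC11 was -1.05 ± 0.67 (SD, n = 3) in DMSO and 1.02 ± 0.52 in pladienolide B, and that of H2BC8 to H2AC8 was 0.73 ± 0.28 and -0.55 ± 0.76. In a two-sided exact permutation test of these ratios over samples, the 2 pairs and H2BC21 with H2AC20 each gave p = 0.1, the smallest that 3 against 3 samples allow, and 0.167 adjusted over the 5 pairs.

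Variants with introns were measured far more deeply and differed little. Per kb of the GENCODE canonical transcript, H2AZ1 was the most abundant histone gene, at 17350 ± 1601 adjusted reads per kb in DMSO (SD, n = 3), followed by H3-3B at 6315 ± 287 and H3-3A at 4497 ± 399. H2BC12 was at 1088 ± 98.2, over a transcript much shorter than its span, and the next clustered gene, H2BC9, at 240.4 ± 30.7. Of the 6 variants with introns, 1 was called higher, 2 lower and 3 not, with a median log2 fold change of -0.0023, beside 22.4% higher and 25.2% lower among all genes tested. Without DMSO replicate 2, 3 were higher.

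Both H2A.Z genes, which encode the variant found beside transcription start sites, were called lower. H2AZ2 (chr7:44826889-44848126, minus strand, 5 exons) had 5745, 5851 and 5723 adjusted reads in DMSO and 4882, 4701 and 4928 in pladienolide B, with no overlap and a log2 fold change of -0.26 ± 0.04 (adjusted p = 5.48e-05). H2AZ1 (chr4:99948088-99950275, minus strand, 5 exons) had 14045, 16615 and 14428 against 13930, 12772 and 13110. The highest treated sample was just under the lowest DMSO sample, and H2AZ1 fell by 0.18 ± 0.05 (adjusted p = 0.0138). That fall was not called without pladienolide B replicate 2 (adjusted p = 0.0756) or 3 (0.0526), or without limma's variance trend.

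The H3.3 genes, which encode the H3 deposited outside replication, did not pass the test. H3-3A (chr1:226061831-226072019, plus strand, 4 exons) had 4618, 5301 and 4516 adjusted reads against 4963, 4871 and 5172, and a log2 difference of 0.06 (-0.05 to 0.17). Without DMSO replicate 2, its highest sample, the difference was 0.13 and was called (adjusted p = 0.00636). H3-3B (chr17:75776434-75779779, minus strand, 4 exons) had 16523, 17969 and 16752 against 16877, 15943 and 16193, overlapping, and a difference of -0.06 (-0.15 to 0.03).

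MacroH2A carries a large globular domain and is found on silent chromatin. MACROH2A1 (chr5:135334381-135401998, minus strand, 9 exons) had 3594, 3704 and 3732 adjusted reads in DMSO and 3946, 3996 and 4108 in pladienolide B. No treated sample was within the DMSO range, and the rise was 0.13 ± 0.04 on the log2 scale (adjusted p = 0.0175). This call was lost without DMSO replicate 1 (adjusted p = 0.0815) or pladienolide B replicate 3 (0.0721), and without limma's variance trend. MACROH2A2 (chr10:70052846-70112282, plus strand, 9 exons) had 1420, 1515 and 1373 against 1613, 1461 and 1529, a difference of 0.10 (-0.02 to 0.21), and was called without DMSO replicate 2 (adjusted p = 0.0392). Counting strand was not stated, and both overlap a gene on the other strand, PITX1-AS1 and AIFM2.

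H2AX and H1-10, outside the clusters, were both called lower. H2AX (chr11:119093874-119095465, minus strand), whose protein is phosphorylated around DNA breaks, ends either at its stem-loop or in a poly(A) tail further on. It had 2292, 2574 and 2261 adjusted reads in DMSO and 1754, 1417 and 1669 in pladienolide B, far from overlapping, and fell by 0.56 ± 0.07 on the log2 scale (adjusted p = 4.93e-06). H1-10 (chr3:129314771-129316286, minus strand), a replication-independent linker histone, had 6419, 6177 and 6692 against 5758, 5570 and 5262 and fell by 0.22 ± 0.05 (adjusted p = 7.62e-04).

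**Figure D3:**
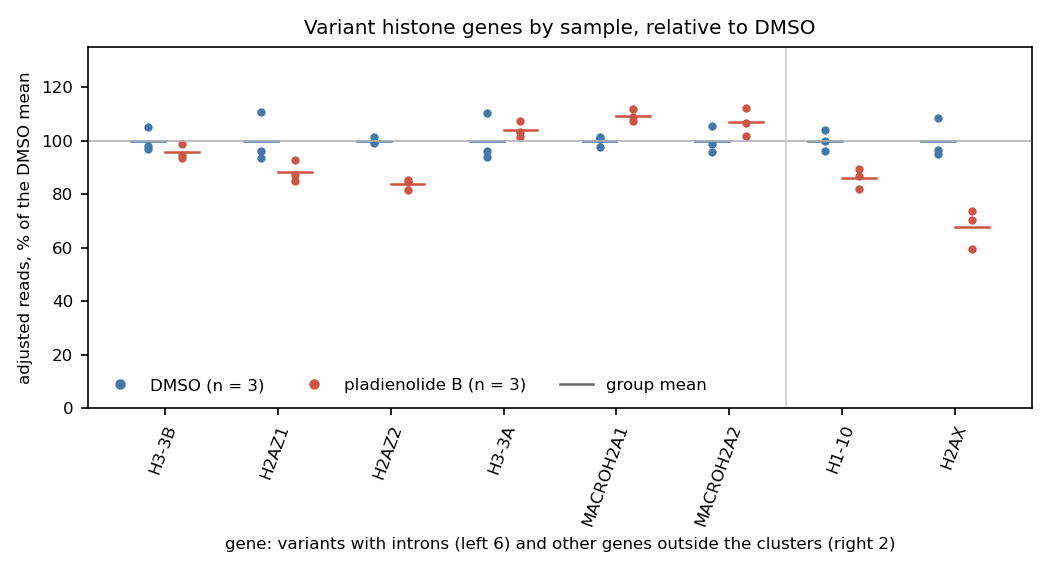
Adjusted reads of each sample as a percent of the DMSO mean of its gene, for the 6 variants with introns (left) and H1-10 and H2AX (right), with a bar at each group mean (n = 3). The H2AX mean lies at 67.9% and the H2AZ2 mean at 83.8%, while the H3-3A and H3-3B means lie at 104% and 95.6%.

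Genes outside the chosen names gave a scale for the absence of introns. Of 210 such tested protein-coding genes with 1 exon in all their GENCODE transcripts, 68 (32.4%) were called higher and 21 lower, with a median log2 fold change of 0.15. Of 13468 with introns in any transcript, 24.3% were higher and 27.1% lower, with a median of -0.0019. Of the 26 clustered genes tested, 19 had 1 exon in all their GENCODE transcripts, of which 0 were higher and 8 lower with a median of -0.42, and they had far fewer reads. The 19 include H2BC12 and H3C4, whose deposited spans (8566 and 2510 bases) exceed those transcripts (495 and 503 bases). The exons of the models counted for them are not known. For the other 7 (among them H2BC15 and H3C6) a spliced transcript is listed, and 0 were higher and 2 lower. Of the clustered genes lower in either set, only H2BC9 and H2BC21 reached the filter's minimum in all samples. The others reached it in all DMSO samples but not all pladienolide B samples, so these counts and the median are a description. In the plot of level against difference the clustered genes lie mostly at the left and the variants at the right, so the 2 sets differ in precision as well as in gene structure. A test between these sets was not made.

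**Figure D4:**
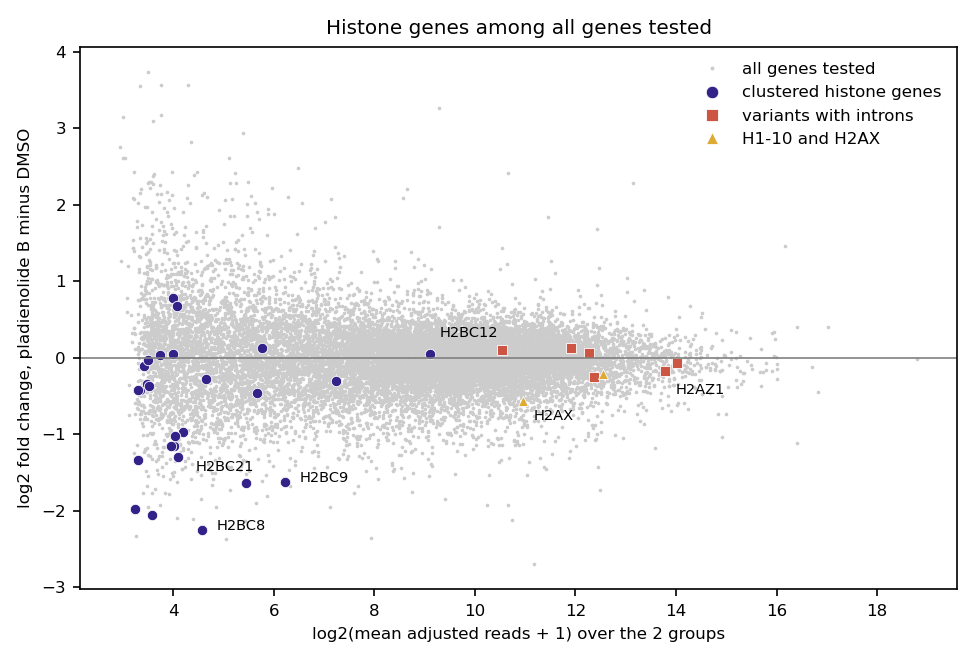
Log2 fold change (pladienolide B minus DMSO) against log2 of the mean adjusted reads + 1 for the 16178 genes tested (grey), with clustered histone genes (circles), variants with introns (squares) and H1-10 and H2AX (triangles). Most clustered genes lie at the low end of the level axis, where grey points also scatter most, and H2BC8, H2BC9 and H2BC21 lie near its lower edge.

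Of 20 factors that process histone mRNA or degrade it, 19 were tested, and 7 were higher, 4 lower and 8 not called (median 0.06), or 36.8% higher and 21.1% lower beside 22.4% and 25.2% of all genes tested. SLBP, which binds the stem-loop, had 3358, 3206 and 3246 adjusted reads in DMSO and 3350, 3448 and 3482 in pladienolide B. These ranges overlapped, and the difference was 0.07 (-0.02 to 0.16, adjusted p = 0.204). Of the U7 snRNP and its partners, the difference was -0.01 for LSM10 and -0.07 for LSM11, neither called, and ZNF473, a zinc finger protein of that complex, rose by 0.28 ± 0.08 (adjusted p = 0.0079, and 0.0578 without DMSO replicate 1). RNU7-1, the U7 RNA itself, had 1.12 to 4.03 adjusted reads, under the minimum for a test. U7 RNA is not polyadenylated.

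Factors that start histone transcription showed small differences. NPAT, the coactivator of histone genes in S phase, rose by 0.20 ± 0.05 (1936 to 2230 mean adjusted reads, adjusted p = 0.00248), and CASP8AP2, its partner in the histone locus body, by 0.13 ± 0.05 (adjusted p = 0.0315). The call of CASP8AP2 was lost when any 1 sample other than DMSO replicate 2 was left out (adjusted p = 0.053 to 0.172). HINFP, an activator of H4 genes, had a difference of -0.15 (adjusted p = 0.0659).

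Cleavage and decay factors moved in both directions. The nuclear cap-binding subunit NCBP1 rose by 0.49 ± 0.05 (adjusted p = 4.02e-07), the endonuclease CPSF3 by 0.42 ± 0.05, its partner CPSF2 by 0.26 ± 0.05 and the helicase UPF1 by 0.23 ± 0.04. The scaffold SYMPK fell by 0.47 ± 0.05 (adjusted p = 1.30e-06), the uridylyltransferase TUT4 by 0.36 ± 0.05, the stem-loop exonuclease ERI1 by 0.27 ± 0.06 and the exonuclease XRN1 by 0.21 ± 0.06.

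Chaperones and deposition factors were more often lower than higher. Of 26, 10 were called lower, 4 higher and 12 not (median -0.03), beside 25.2% and 22.4% of all genes. HJURP, the chaperone of the centromeric H3 variant CENPA, fell by 0.76 ± 0.06 (1816 to 1072 mean adjusted reads, adjusted p = 3.86e-08). CENPA, a histone outside the chosen names, fell by 1.11 ± 0.07, with 1038, 1062 and 994 adjusted reads in DMSO and 510, 429 and 494 in pladienolide B. CABIN1 of the HIRA complex fell by 0.63 ± 0.05, the importin IPO4, which carries H3 and H4 into the nucleus, by 0.60 ± 0.05, and TONSL, a reader of new histones, by 0.54 ± 0.06. SRCAP, the ATPase that deposits H2A.Z, rose by 0.26 ± 0.05, VPS72 of the same complex by 0.23 ± 0.07, RBBP4 by 0.22 ± 0.04 and the FACT subunit SUPT16H by 0.13 ± 0.04. The call of VPS72 was lost without DMSO replicate 3 (adjusted p = 0.0504), and that of SUPT16H without DMSO replicate 1 or 3 or pladienolide B replicate 1 (0.0563 to 0.0817).

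S phase genes likewise included more falls than rises. Of 24, 11 were called lower, 3 higher and 10 not (median -0.09), or 45.8% lower and 12.5% higher beside 25.2% and 22.4% of all genes tested. POLA1, the catalytic subunit of primase-polymerase alpha, fell by 1.02 ± 0.06 (1116 to 549 mean adjusted reads, adjusted p = 1.12e-09). The replicative helicase factor CDC45 fell by 0.98 ± 0.07, the thymidine kinase TK1 by 0.91 ± 0.05 and the ribonucleotide reductase subunit RRM2 by 0.49 ± 0.04. Cyclin E1 (CCNE1), which drives entry into S phase, rose by 0.43 ± 0.06, the phosphatase CDC25A by 0.39 ± 0.07 and the helicase subunit MCM2 by 0.22 ± 0.05. Both the clustered genes and part of this list were lower. The part of S phase content in the histone differences was not tested.

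**Figure D5:**
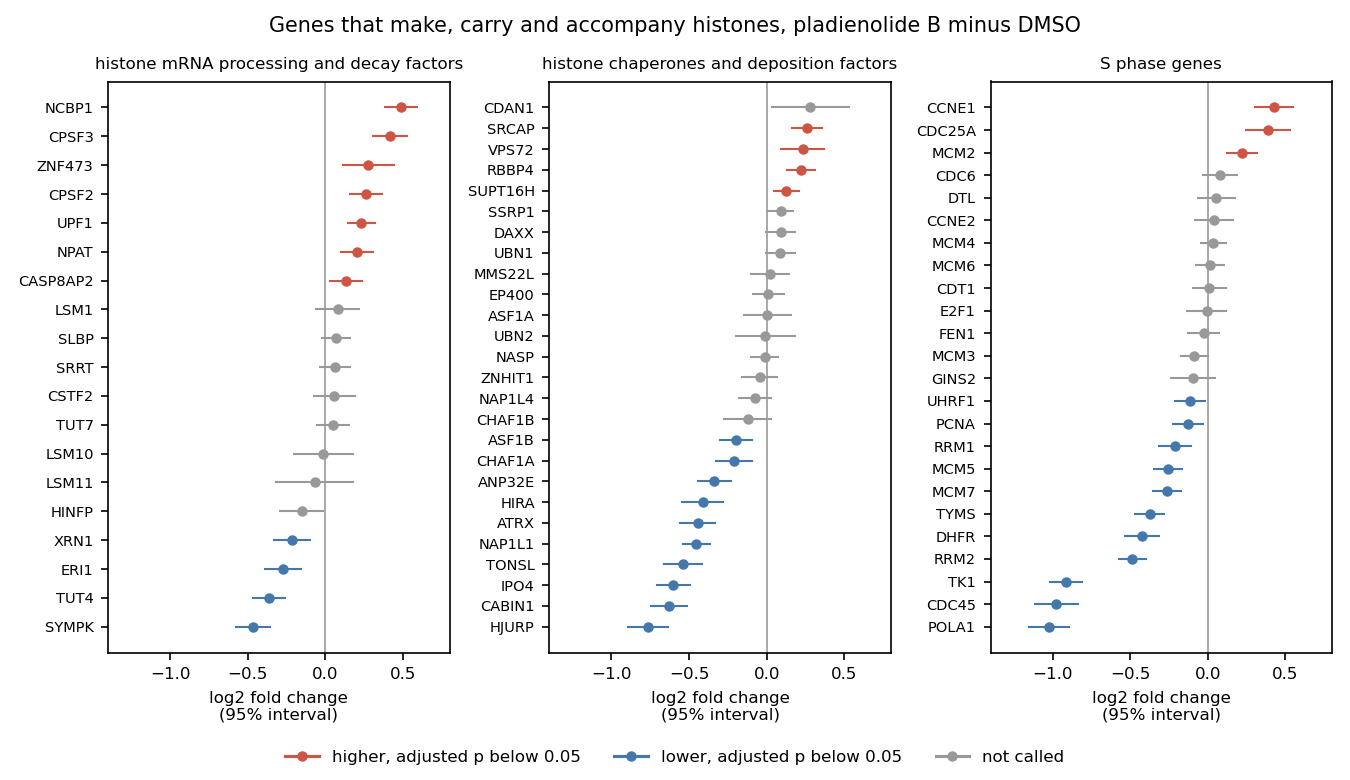
Log2 fold change (pladienolide B minus DMSO) with limma's 95% interval for each tested gene of 3 lists: factors that process or degrade histone mRNA, histone chaperones and deposition factors, and S phase genes. Red points were called higher, blue lower and grey not called, and SLBP is among the grey points.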

How the data were processed

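RNA from 6 OVCAR8 samples (3 DMSO, 3 pladienolide B) was enriched with oligo(dT) and sequenced. The study's methods give read trimming, alignment by hisat2 against hg38, and DESeq2 for differential expression. The submitters' processing notes name HISAT2, HTSeq 0.12.4, DESeq2 and hg19. Positions of all 77 histone genes in the table overlap those of RefSeq GRCh38.p14, so that build was used. Strand and multi-mapping settings were not given in the sources used here.

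The authors deposited 1 signal value per gene and sample, adjusted for library size, which was identified as an edgeR quantile adjustment of counts (common dispersion 0.0027). Inverting that adjustment gave whole reads, which returned 100% of the deposited values to within 0.0001 when adjusted again. They also deposited log2 fold changes, p-values and q-values, which were not used.

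The main test was limma 3.58.1 with a variance trend on log2(adjusted reads + 1), two-sided, with Benjamini-Hochberg adjustment over 16178 genes. Genes needed the equivalent of 10 adjusted reads in 3 samples and 15 in total. The pseudocount of 1 shrinks fold changes of genes with few reads. edgeR 4.0.16 and DESeq2 1.42.0 on recovered reads were alternatives, as were no filter, a pseudocount of 0.1, centring, no variance trend, a replicate block and leaving out each sample. A filter on the mean was added after the data were seen. All tools were tested on simulated data.

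Members and lists were chosen with earlier results of these data known. Named were all variants, the 12 most abundant clustered genes tested, the 6 largest rises and 6 largest falls called, SLBP, NPAT, CASP8AP2, LSM10, LSM11, ZNF473 and HINFP, and per list the 4 largest rises and falls called. Other genes named (among them H2BC11, H2BC13, H3C6 and members of gene pairs) were chosen after their values were seen. Exons are those of GENCODE canonical transcripts, or of all GENCODE transcripts where stated. Proteins were not analysed here, and 1 of the 77 genes is not reported here. Of the marker lists, 3 of 9 epithelial and Mullerian genes tested were higher (KRT8, KRT18, CDH1) and 1 lower (KRT7). limma called 0 of 1 immune and 0 of 2 endothelial genes, as did edgeR and DESeq2. At an unadjusted p below 0.05, limma and edgeR each gave 0 immune and 1 endothelial gene, and DESeq2 gave 0 and 0. Of 10 other histone genes in the table, 3 were tested, of which 2 were lower (CENPA and H2AJ).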

Additional observations from a re-analysis of the deposited data

How the results depend on the processing

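Counts over all genes, the processing, chaperone and S phase lists and the absence of clustered genes called higher kept within 1.5 times of their values under the 14 alternatives. The count of clustered genes called lower, 10, was 6 with DESeq2, 9 with edgeR and 5 to 9 when 1 sample was left out, and all of those called by DESeq2 or edgeR were among the 10. The median log2 fold change of the clustered genes, -0.42, ranged from -0.56 to -0.38 when 1 sample was left out. Without limma's variance trend, 0 variants with introns were called higher (main value 1) and 1 lower (main value 2). Leaving out 1 sample gave 0 to 3 higher and 1 to 2 lower. Of 768 values of the 55 genes followed, 716 kept direction and side of the threshold, 49 lost the call, 3 gained it and 0 reversed a called direction. The causes were not tested. Same-numbered samples showed no shared deviation (correlations of -0.02, -0.02 and 0.00). With 3 samples a group this cannot exclude a pairing, and the labels do not name one. With the replicate number as a block, 7349 genes were called in place of 7695, and 10 clustered genes were lower, 9 of them among the original 10. Depth limits the clustered genes, of which 40 of 66 were too low to test.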

Other observations

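Values of other histone genes outside the chosen names were read as well. H2AJ, a replication-independent H2A gene, had 430, 500 and 438 adjusted reads in DMSO and 365, 365 and 326 in pladienolide B, and fell by 0.37 ± 0.09 on the log2 scale (limma adjusted p = 0.00189). H2AW had 182, 192 and 254 against 141, 184 and 178, a log2 difference of -0.31 that was not called (adjusted p = 0.08).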
